A study of Ovis aries with 36 samples.

Results

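Among 26478 sheep gene IDs measured in 3 tissues of 12 rams, 90 (0.340%) were present at similar levels in the hypothalamus and the pars tuberalis and were far lower in the pineal gland. They were chosen on measured levels, in CPM (a gene's count divided by the total count of its library and multiplied by 1e+06). A member had a median over the 12 rams of at least 10 CPM in each of those 2 tissues. Both of those medians were at least 6 times the pineal median and within 3-fold of each other. Of the 9456 genes with medians of at least 10 CPM in both tissues, the 90 members were 0.952%. The same 3 conditions found 186 genes when the hypothalamus was paired with the pineal gland, and 24 genes when the pars tuberalis was paired with the pineal gland.

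The animals were adult rams of the Rasa Aragonesa breed, and each gave 1 RNA library from each tissue. Per the labels, 6 rams were sexually active (animals 1 to 6) and 6 were not (animals 7 to 12, called inactive here). This gives 6 groups of 6 libraries, by tissue and state. No treatment or genotype is given in the labels.

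The hypothalamus holds the neurons that release gonadotropin-releasing hormone and so drives the reproductive axis. The pars tuberalis is the thin part of the pituitary that wraps the stalk below the hypothalamus and carries many melatonin receptors. The pineal gland secretes melatonin at night, and in seasonal breeders such as sheep the pars tuberalis passes that signal on to the hypothalamus through thyrotropin. Hypothalamus and pars tuberalis touch each other, while the pineal gland lies apart from both on the roof of the brain.

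Library totals ran from 19251952 to 44283825 counts for hypothalamus, from 22556623 to 35440028 for pars tuberalis and from 25242937 to 72951491 for pineal gland. The deposited counts carry Ensembl IDs without gene names, and 0 of the 26478 IDs were found in the reference gene table used here. Members are therefore given by ID, their functions are not described, and the tissue labels could not be checked against named marker genes. In place of markers, genes restricted to 1 tissue in these libraries (a median of at least 20 CPM and at least 50 times both other tissues) were used as a measure of each library's make-up. There were 32 such genes for the hypothalamus, 47 for the pars tuberalis and 67 for the pineal gland, and a library's level is their median as a percent of the level in their own tissue.

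Some libraries stood apart on that measure. In hypothalamus libraries the level of hypothalamus-restricted genes ran from 57.5% in inactive animal 8 to 208% in inactive animal 10, with 153% in inactive animal 7. In pars tuberalis libraries the level of pars tuberalis-restricted genes was 58.7% in inactive animal 7 and 89.99 to 112% in the others. The pineal library of inactive animal 10 held hypothalamus-restricted genes at 9.14%, against 0.302 to 1.54% in the other pineal libraries. The hypothalamus library of active animal 4 held pars tuberalis-restricted genes at 15.6%, against at most 1.78% in the other hypothalamus libraries. Where leaving out 1 of these libraries moved a state difference of a named member by over 1.5 times, the value without it is given beside it. This covers the differences for which a member was named and those of ENSOARG00020018165, described below. Other differences were not followed in this way.

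The tissue levels that follow were used to choose the members and are a description. Member medians in the hypothalamus ran from 10.1 to 997 CPM, with a middle value of 48.2 CPM. In the pars tuberalis they ran from 10.2 to 661 CPM, with a middle value of 43.7 CPM. In the pineal gland they ran from 0.0724 to 78.9 CPM, with a middle value of 2.74 CPM. The hypothalamus median was a middle 14.9 times the pineal median, and the pars tuberalis median was a middle 16.3 times the pineal median. Taking the lower of both tissues, 53 members were at least 10 times, 30 at least 20 times and 10 at least 50 times the pineal median. In 14 members both medians were at least 100 CPM. CPM are not corrected for gene length, so levels are compared between tissues of 1 gene and not between genes.

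Members were spread evenly on both sides of an equal level in the sharing tissues. The ratio of the hypothalamus to the pars tuberalis median ran from 0.341 to 2.94 with a middle value of 1.04, and 48 members had the higher median in hypothalamus and 42 in pars tuberalis. At 2-fold or more, 12 members were higher in hypothalamus and 12 in pars tuberalis. In 6 members (6.67%) the 12 hypothalamus libraries did not overlap the 12 pars tuberalis libraries. The 3-fold limit of the rule bears on this count. Its share over all genes was not taken, so nothing is read from it. ENSOARG00020007531, which was chosen after its values were seen, had 78.4 to 235 CPM in the hypothalamus and 25.6 to 67.0 CPM in the pars tuberalis. ENSOARG00020006880, which lies just inside the 3-fold limit, had 43.4 to 82.0 CPM in the hypothalamus and 151 to 240 CPM in the pars tuberalis.

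In 69 of the 90 members (76.7%) all 24 hypothalamus and pars tuberalis libraries lay above all 12 pineal libraries, which held for 2.89% of the 16773 genes tested below. That separation follows in large part from the rule, and nothing is read from it. Without the pineal library of inactive animal 10 it held for 83 members.

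**Figure D1:**
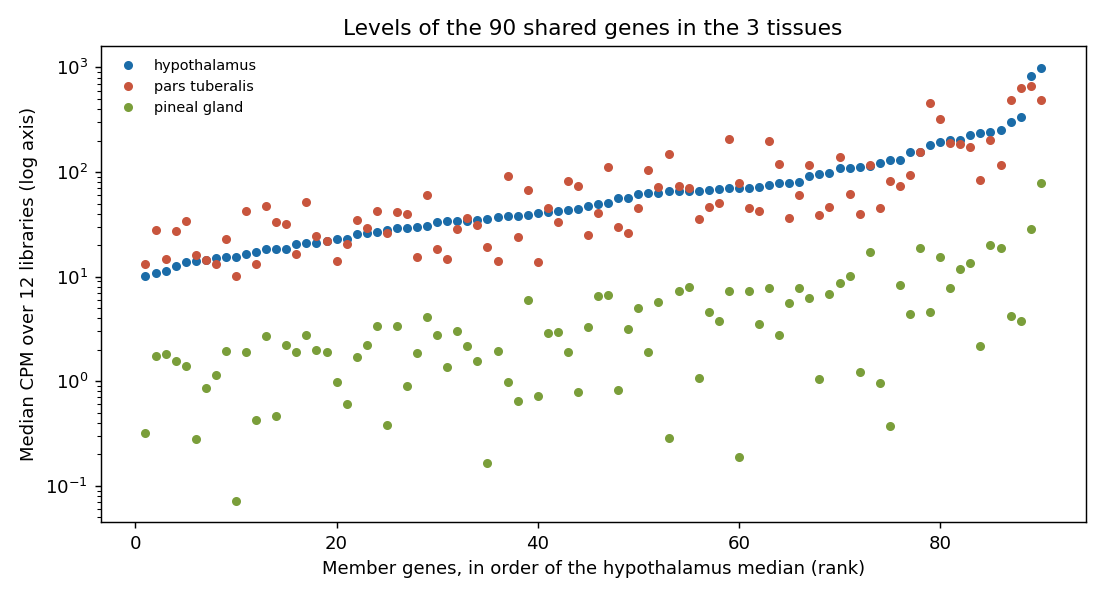
Median CPM over 12 libraries of each of the 90 members in hypothalamus (blue), pars tuberalis (red) and pineal gland (green), on a log axis, with members in order of the hypothalamus median. Pars tuberalis points lie on both sides of the hypothalamus points (ratios of 0.341 to 2.94), and by the rule every pineal point lies below both.

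At the threshold on the pineal ratio, the members just inside had ratios of 6.06 (ENSOARG00020018264) and 6.13 (ENSOARG00020022056), and the genes just outside had 5.90 (ENSOARG00020022782) and 5.78 (ENSOARG00020004289). At the threshold on the fold between both tissues, the members just inside had 2.94 (ENSOARG00020002701) and 2.93 (ENSOARG00020006880), and the genes just outside had 3.06 (ENSOARG00020019907) and 3.11 (ENSOARG00020007724). At the threshold on the level, the members just inside had medians of 10.1 CPM (ENSOARG00020007814) and 10.2 CPM (ENSOARG00020000761), and the genes just outside had 9.98 CPM (ENSOARG00020014889) and 9.34 CPM (ENSOARG00020011695). Values on both sides of each limit lie close together, so the list has no natural edge there.

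The 2 members with the highest lower median were ENSOARG00020009292 and ENSOARG00020007736. ENSOARG00020009292 had 150 to 1401 CPM in hypothalamus (median 832), 416 to 972 CPM in pars tuberalis (median 661) and 7.98 to 166 CPM in pineal gland (median 28.3). ENSOARG00020007736 had 562 to 2477 CPM in hypothalamus (median 997), 346 to 588 CPM in pars tuberalis (median 493) and 44.1 to 223 CPM in pineal gland (median 78.9). The highest pineal value of each came from inactive animal 10. For ENSOARG00020009292 that value overlapped the lowest hypothalamus library, which was also from inactive animal 10. For ENSOARG00020007736 every pineal library lay below the others, and hypothalamus and pars tuberalis overlapped. Its hypothalamus value in active animal 2 was 2477 CPM, and the next library had 1402 CPM.

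Ranked by the lower of both tissue medians over the pineal median, ENSOARG00020021118 and ENSOARG00020019583 came highest. ENSOARG00020021118 had 5.17 to 169 CPM in hypothalamus (median 70.2), 50.6 to 137 CPM in pars tuberalis (median 78.5) and 0.0991 to 0.666 CPM in pineal gland (median 0.189). Over the 12 pineal libraries it had 122 counts in all, against 406 for ENSOARG00020019583. ENSOARG00020019583 had 31.0 to 83.2 CPM in hypothalamus (median 65.4), 54.6 to 191 CPM in pars tuberalis (median 148) and 0.0663 to 4.10 CPM in pineal gland (median 0.288). Its medians put the hypothalamus at 227 times and the pars tuberalis at 514 times the pineal gland.

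Between rams the members varied more than most genes above the same level threshold; this is given as a description, with no test. The coefficient of variation (SD over mean) across the 12 hypothalamus libraries had a median of 47.7% over the members, against 23.2% over the 9456 comparison genes, which are all genes with medians of at least 10 CPM in both tissues. For the pars tuberalis the medians were 30.5% for the members and 18.8% for the comparison genes. In the pineal gland, where the rule holds the members low, they were 70.3% for the members and 16.1% for the comparison genes. A member's value was above the comparison median for 88 of 90 members in hypothalamus, 80 in pars tuberalis and 90 in pineal gland. Leaving out the library that stood furthest apart in each tissue (animal 10, animal 7 and animal 10) gave member medians of 43.0%, 27.0% and 42.2%, against 22.1%, 13.8% and 16.0% for the comparison genes. The pineal value is thus the one that moved by more than 1.5 times.

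Other genes shared by a pair of tissues also varied. Genes shared by hypothalamus and pineal gland had a median coefficient of variation of 31.4% in the hypothalamus. Genes shared by pars tuberalis and pineal gland had 30.1% in the pars tuberalis, close to the 30.5% of the members there. These genes were chosen by a rule of the same form, so no test was made between the lists.

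Together the members took 0.613 to 1.15% of the counts of a hypothalamus library, 0.739 to 1.21% of a pars tuberalis library and 0.0410 to 0.146% of a pineal library. The highest pars tuberalis share, 1.21%, came from inactive animal 7, and the next was 0.862%. The highest pineal share, 0.146%, came from inactive animal 10, and the next was 0.0661%.

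Departures from the tissue median differed widely between libraries. In the hypothalamus library of inactive animal 10, 43 members (47.8%) were 2-fold or more below their tissue median and 11 were 2-fold or more above it. For the comparison genes the shares were 6.99% below and 2.78% above. That library was the lowest of the 12 for 40 members (44.4%) and 21.6% of comparison genes, and the highest for 22 members (24.4%) and 17.9% of comparison genes. In the hypothalamus library of inactive animal 7, 22 members (24.4%) were 2-fold or more below and 3 (3.33%) above. The comparison genes had 2.18% below and 0.518% above. In that of active animal 2, 21 members (23.3%) were below and 11 (12.2%) above, against 3.71% and 3.04% of comparison genes. In that of active animal 6, 2 members (2.22%) were below and 17 (18.9%) above, against 3.59% and 3.37% of comparison genes. That of inactive animal 12 had 5 (5.56%) below and 12 (13.3%) above, against 4.91% and 3.66%. That of active animal 3 had 4 (4.44%) below and 11 (12.2%) above, against 0.624% and 1.78%. That of inactive animal 8 had 9 (10.0%) below and 6 (6.67%) above, against 0.804% and 0.846%. The remaining hypothalamus libraries had at most 7.78% of members on either side.

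Departures were fewer in the pars tuberalis outside 1 library. In that of inactive animal 7, 17 members (18.9%) were 2-fold or more above their tissue median and 12 (13.3%) below. The comparison genes of the same library had 6.43% above and 17.4% below. It was the highest of the 12 pars tuberalis libraries for 28 members (31.1%) and 23.7% of comparison genes, and the lowest for 21 members (23.3%) and 45.5% of comparison genes. In the pineal gland, the library of inactive animal 10 had 60 members (66.7%) 2-fold or more above the pineal median and 0 below, against 2.38% of comparison genes above, and it was the highest pineal library for 67 members (74.4%) and 14.2% of comparison genes.

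**Figure D2:**
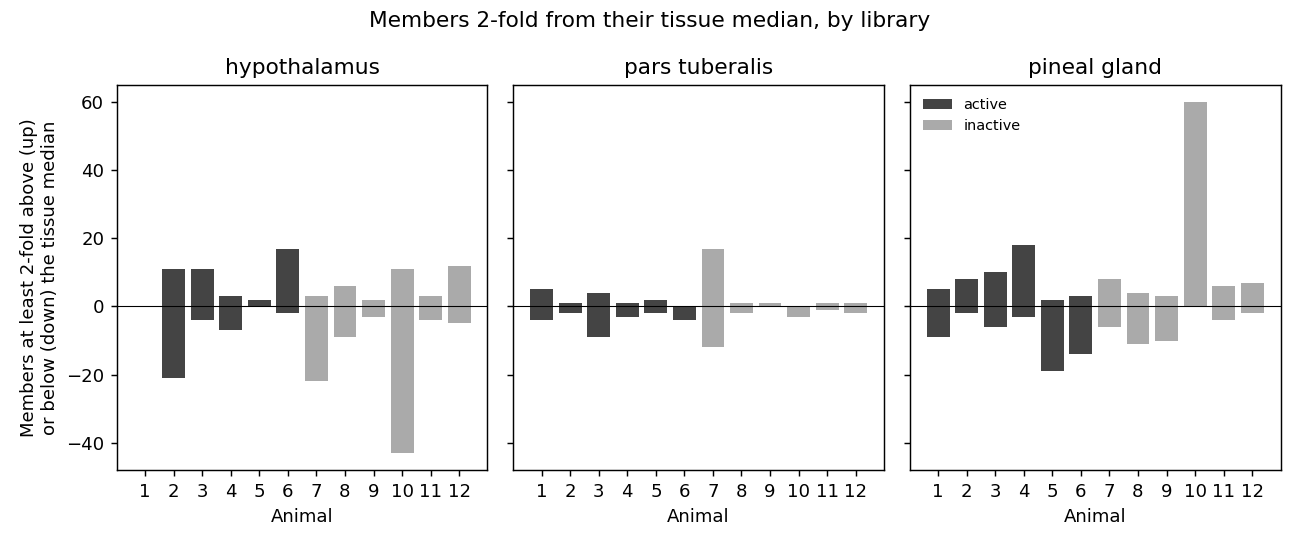
Number of the 90 members 2-fold or more above (bars up) or below (bars down) their tissue median in each of the 36 libraries, by animal, with dark bars for active and light bars for inactive rams. The hypothalamus and pineal libraries of inactive animal 10 and the pars tuberalis library of inactive animal 7 stand out, with 43 members below, 60 above and 17 above.

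In the pineal library of inactive animal 10 the excess of the members went with that of hypothalamus-restricted genes. The median member stood there at 290% of its pineal median. Expressed as a percent of its hypothalamus median, the excess of a member over its pineal median was 8.64% in the middle, with quartiles of 5.19 and 17.4%. The hypothalamus-restricted genes, which are not members, had an excess of 8.66% in the same library. The next highest pineal library on the median member was that of active animal 4, at 131% of the pineal median. The part of the hypothalamus-restricted genes in the members' level in that library was not tested. In whole tissue, fewer cells of a type and less RNA per cell cannot be told apart, here and in every comparison that follows.

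Within the hypothalamus, many members followed or opposed the level of hypothalamus-restricted genes. On the log2(CPM + 0.5) scale, over the 12 hypothalamus libraries, 31 members (34.4%) had a Pearson r of -0.7 or below with that level and 16 (17.8%) had an r of 0.7 or above. Of the comparison genes, 13.5% and 11.2% did. These are descriptions across libraries that also differ in depth, and both sets of genes were read from the same libraries. Without the 2 libraries furthest from the median level, those of inactive animals 10 and 8, the counts were 25 (27.8%) and 15 (16.7%), against 9.39% and 10.5% of the comparison genes.

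The 31 opposing members were lowest in the 2 hypothalamus libraries with the most hypothalamus-restricted RNA. Their median stood at 32.5% of the tissue median in inactive animal 10 and at 44.7% in inactive animal 7. It stood at 161% in active animal 3, 153% in inactive animal 12, 140% in active animal 6 and 136% in inactive animal 8. Those libraries had the lowest totals of the hypothalamus, at 19251952 to 22663008 counts, against 26667022 to 44283825 in the others. They also had the least hypothalamus-restricted RNA, at 57.5 to 73.8%, against 98.0 to 208% in the others. The part of depth in the members' levels was not tested. The 31 members stood at 71.5% in active animal 2 and 77.4% in active animal 4, where the restricted genes were at 99.3% and 101%. They stood at 79.8% in active animal 1 and 90.04% in inactive animal 11, where the restricted genes were at 129% in each. Across the pars tuberalis libraries the same 31 members ran from 89.8 to 125% of their tissue median. That range is narrower, but the 31 were picked on their hypothalamus values. The median over all 90 members also ranged less in the pars tuberalis (91.2 to 103%) than in the hypothalamus (54.0 to 118%). Of the 31, 17 had the higher median in the hypothalamus.

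The 16 members that followed hypothalamus-restricted genes moved the other way. They stood at 238% of the tissue median in inactive animal 10 and 137% in inactive animal 7. They stood at 51.7% in inactive animal 8 and 58.9% in active animal 6, which are among the libraries of low total given above. Among pars tuberalis libraries the 16 members ran from 56.0% in inactive animal 7 to 123%. Of the 16, 11 had the higher median in the hypothalamus. Since the blocks were picked by their values in these libraries, no test was made of them.

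**Figure D3:**
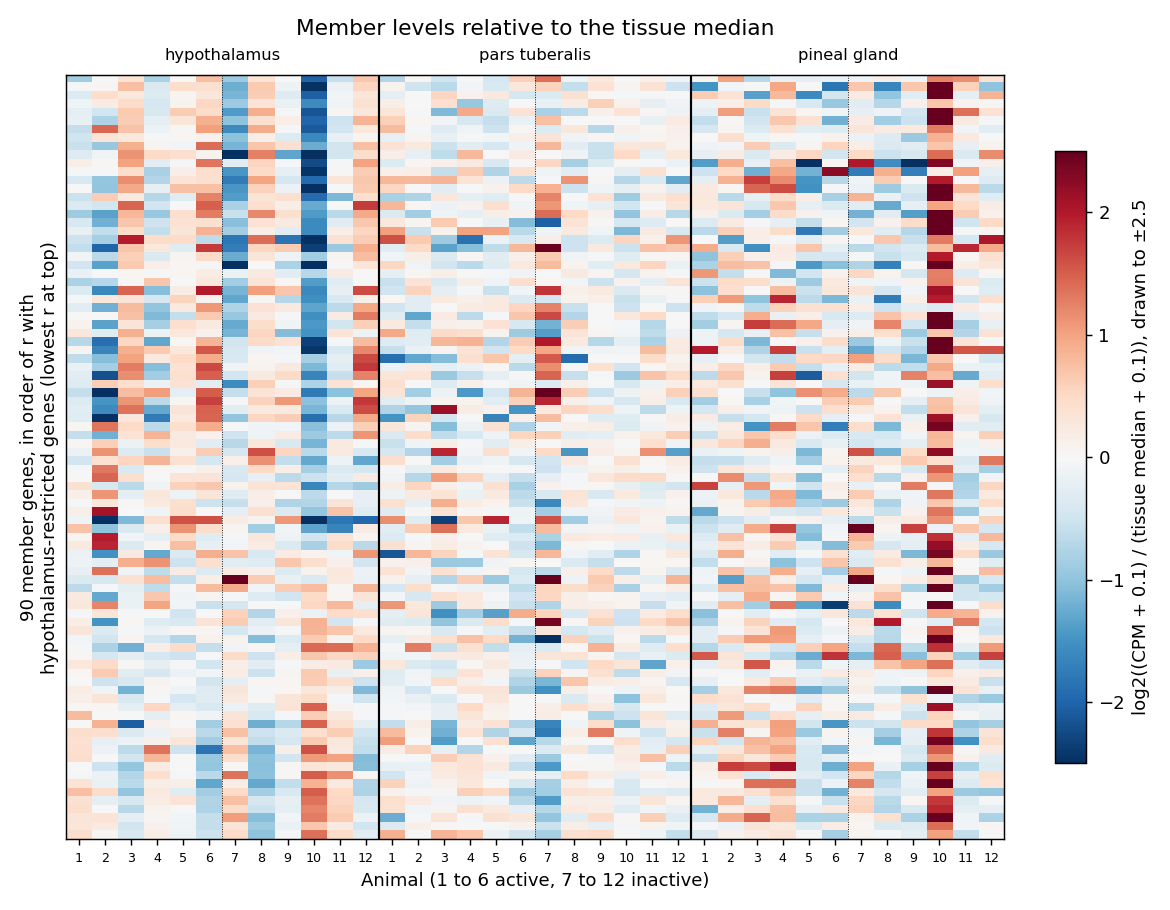
Log2 ratio of each member's CPM to its own tissue median (0.1 CPM added to both, drawn to 2.5 either way, red above and blue below) for 90 members (rows) in 36 libraries (columns). Rows run from the lowest r with hypothalamus-restricted genes in the hypothalamus, at the top, to the highest. The hypothalamus libraries of inactive animals 10 and 7 are blue in the upper rows, and the pineal library of inactive animal 10 is red in most rows.

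The level of a member in the hypothalamus of a ram was set beside that in the pars tuberalis of the same ram. Across the 12 animals, on the log2(CPM + 0.5) scale and with both states together, the r of a member between hypothalamus and pars tuberalis had a median of -0.0830, against 0.0693 for the comparison genes. It was over 0.5 for 6 members (6.67%) and for 7.62% of the comparison genes. For ENSOARG00020018165 1 animal gave the highest library of all 3 tissues, and it was the single member for which that held.

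ENSOARG00020018165 is outside the rule for named genes and was chosen after its values were seen. In inactive animal 7 it had 224 CPM in hypothalamus, 230 CPM in pars tuberalis and 12.9 CPM in pineal gland. The next highest values were 31.6 CPM in hypothalamus, 57.5 CPM in pars tuberalis and 3.79 CPM in pineal gland. A single library at 3 or more times the next was seen for 1 member in the hypothalamus, which is this gene, and for 5 members in the pars tuberalis, 4 of them in inactive animal 7. It was seen for 22 members in the pineal gland, 21 of them in inactive animal 10. Shares of the comparison genes were not taken for these counts. The highest pars tuberalis library was that of inactive animal 7 for 23.7% of comparison genes. The highest pineal library was that of inactive animal 10 for 14.2% of them.

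**Figure D4:**
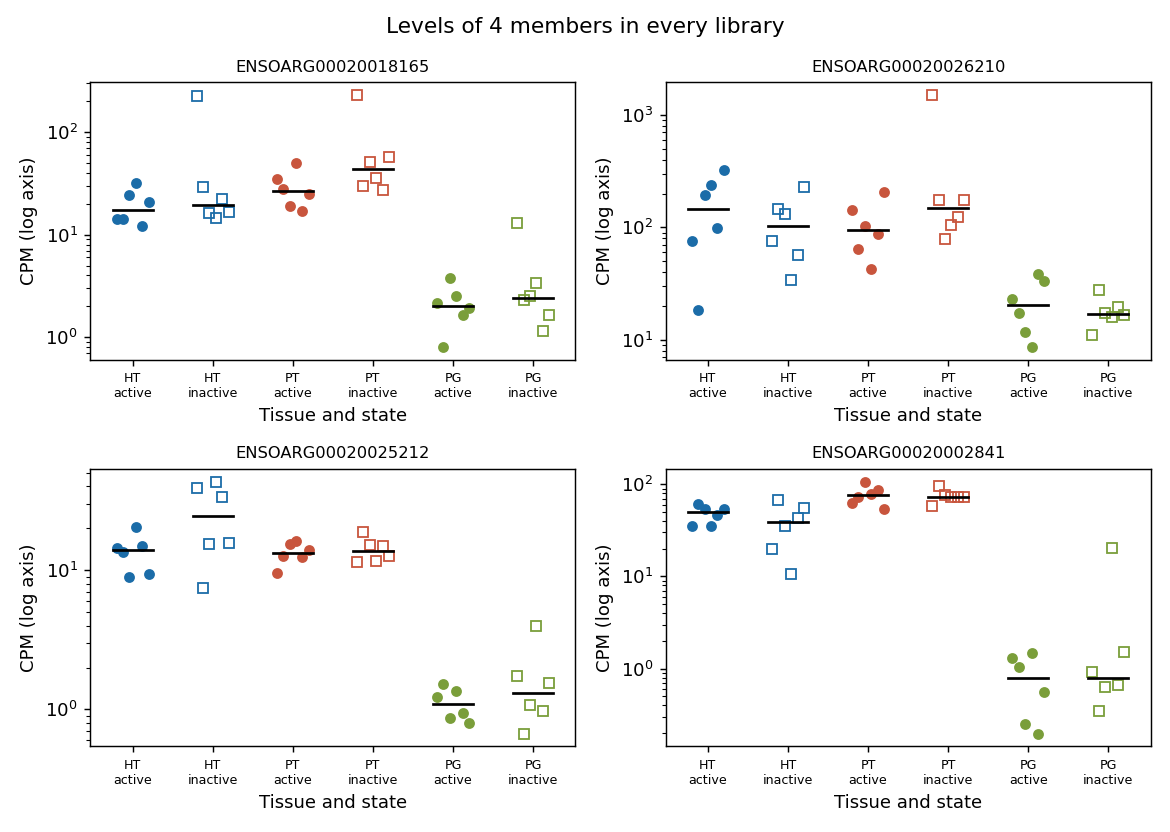
CPM per library on a log axis for 4 members, by tissue (HT hypothalamus, PT pars tuberalis, PG pineal gland) and state, with filled circles for active and open squares for inactive rams (6 per group) and black lines at group medians. A single inactive ram stands apart in each, with ENSOARG00020018165 at 224 CPM in HT and 230 CPM in PT, ENSOARG00020026210 at 1506 CPM in PT, ENSOARG00020002841 at 20.2 CPM in PG and ENSOARG00020025212 at 3.97 CPM in PG. ENSOARG00020025212 also spreads more widely in inactive than in active HT.

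State was not used to choose the members, so active and inactive rams were tested within each tissue. All 90 members passed the filter on low counts and were among the 16773 genes tested. By the edgeR quasi-likelihood test, with p-values adjusted (Benjamini-Hochberg) over all genes tested, 0 members were called at an adjusted p below 0.05 in the hypothalamus, where 16 genes in all (0.0954%) were called. Likewise 0 members were called in the pars tuberalis, where 0 genes (0%) were called, and 0 in the pineal gland, where 0 genes (0%) were called. DESeq2 also called 0 members in each tissue, with 138, 1 and 20 genes called in all. In 0 members did the 6 active libraries not overlap the 6 inactive libraries, against 0.0596% of all genes tested in hypothalamus, 0.0954% in pars tuberalis and 0.0417% in pineal gland.

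These tests were less precise for the members than for other genes. The median standard error (SE) of the log2 difference was 0.42 for the members in hypothalamus, 0.43 in pars tuberalis and 0.44 in pineal gland, against 0.23 over all genes tested in each tissue. The 95% interval of the difference lay within 2-fold either way for 29 members in hypothalamus (32.2%), 37 in pars tuberalis (41.1%) and 29 in pineal gland (32.2%). Over all genes tested the shares were 72.1%, 72.4% and 77.2%. For the other members the interval reaches a 2-fold difference between active and inactive rams in at least 1 direction.

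**Figure D5:**
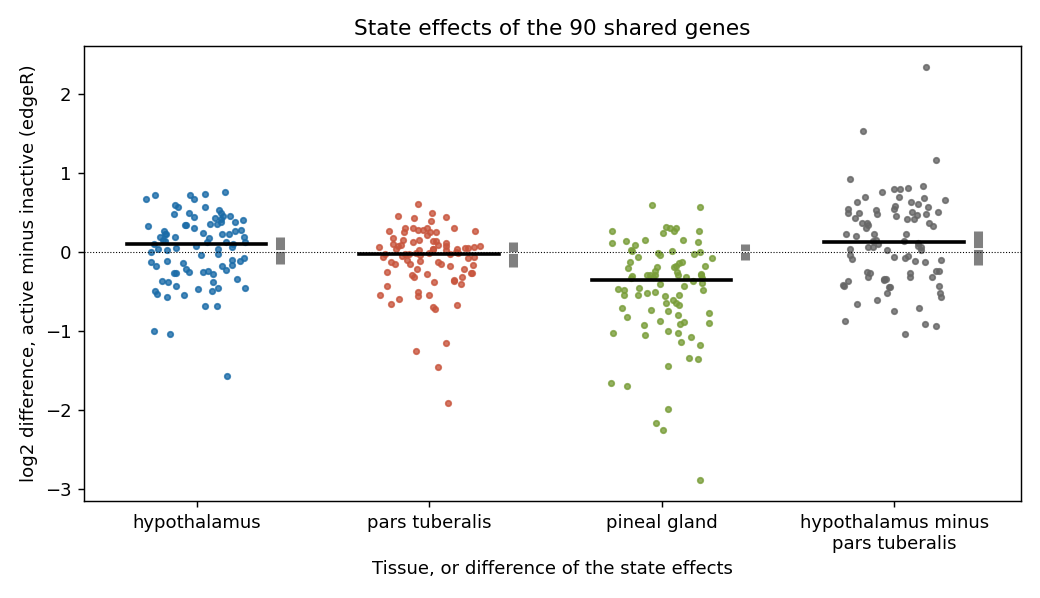
Log2 difference between active and inactive rams for each of the 90 members (points) per tissue, and the hypothalamus difference minus the pars tuberalis difference, with black lines at the members' medians. Grey bars span the quartiles of all 16773 genes tested, with their median marked in white. The members' medians are 0.11 in hypothalamus, -0.01 in pars tuberalis, -0.35 in pineal gland and 0.13 for the difference of both, and their spread is wider than that of all genes.

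In the hypothalamus the median log2 difference of the members was 0.11, against 0.01 over all genes tested, and 53 members were above 0 (58.9%, against 52.3% of all genes). An unadjusted p below 0.05 was reached by 4 members (4.44%) and by 9.33% of all genes. Of the 4, 1 was higher in active rams, against 5.74% of all genes, and 3 were lower, against 3.59% of all genes. DESeq2 gave 5 members at that level. The median was -0.0415 without active animal 3 and -0.0826 without active animal 6, and the number at that level was 8 without active animal 4, 10 without inactive animal 8 and 7 without inactive animal 12. It was 2 without the hypothalamus library of inactive animal 10, an alternative chosen after seeing the data, and 8 without the pineal library of inactive animal 10. For the alternative fits, here and below, shares of all genes at that level are not given, so these counts have no background. The 4 members were ENSOARG00020025212, ENSOARG00020001148, ENSOARG00020006195 and ENSOARG00020018165.

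ENSOARG00020025212 had 9.01 to 20.4 CPM in active hypothalami (median 14.1) and 7.41 to 43.2 CPM in inactive hypothalami (median 24.6). The log2 difference was -0.999 (SE 0.32), adjusted p 0.263 (edgeR quasi-likelihood, Benjamini-Hochberg adjusted). The groups overlapped, and the lowest library of all 12 was that of inactive animal 8. Without animal 8 the difference was -1.21 with an adjusted p of 0.0470, so that this member was called, and over all alternatives the adjusted p ran from 0.0470 to 0.999. Over the 12 hypothalamus libraries this member had an r of 0.895 with hypothalamus-restricted genes, whose level ran from 70.6 to 129% in active rams and from 57.5% (animal 8) to 208% (animal 10) in inactive rams. Their part in the difference was not tested.

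ENSOARG00020001148 had 18.1 to 57.6 CPM in active hypothalami (median 34.0) and 35.8 to 113 CPM in inactive hypothalami (median 59.9). The groups overlapped, the log2 difference was -1.04 (SE 0.41) and the adjusted p was 0.385 by the same test. The highest value of both of these members came from the hypothalamus of inactive animal 10. Both had pars tuberalis differences near 0 on the log2 scale, at -0.07 for ENSOARG00020025212 and -0.0038 for ENSOARG00020001148.

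ENSOARG00020006195 had 33.9 to 93.8 CPM in active hypothalami (median 42.7) and 21.7 to 39.4 CPM in inactive hypothalami (median 27.0). The groups overlapped at their edges, and the highest value was that of active animal 2, with 45.0 CPM in the next active ram. The log2 difference was 0.74 (SE 0.33) and 0.43 without animal 2. ENSOARG00020001258 had 53.7 to 257 CPM in active hypothalami (median 76.2) and 39.0 to 94.2 CPM in inactive hypothalami (median 59.0). Its log2 difference of 0.73 (SE 0.36) was 0.23 without animal 2. The adjusted p of ENSOARG00020006195 was 0.456 and that of ENSOARG00020001258 was 0.543 (edgeR quasi-likelihood, Benjamini-Hochberg adjusted).

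For the pars tuberalis the median log2 difference was -0.01 for the members and -0.01 over all genes tested, and 42 members were above 0 (46.7%, against 48.5% of all genes) and 48 below (53.3%, against 51.4% of all genes). An unadjusted p below 0.05 was reached by 3 members (3.33%) and by 3.54% of all genes, and DESeq2 gave 3 members. All 3 were lower in active rams, against 2.5% of all genes, and in all 3 the highest inactive library was that of animal 7. Without that animal 0 members had such a p and the median was 0.0344, and without inactive animal 10 there were 5.

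ENSOARG00020026210 had 42.6 to 207 CPM in the pars tuberalis of active rams (median 95.3) and 79.6 to 1506 CPM in that of inactive rams (median 150). Its value of 1506 CPM in animal 7 was followed by 177 CPM in the next inactive ram. The log2 difference was -1.91 (SE 0.67), adjusted p 0.967 (edgeR quasi-likelihood, Benjamini-Hochberg adjusted), and it was -0.21 without that library, an alternative chosen after seeing the data.

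ENSOARG00020021630 showed the same form at a lower level. It had 24.1 to 64.4 CPM in the pars tuberalis of active rams (median 38.1) and 33.0 to 250 CPM in that of inactive rams (median 68.7). The log2 difference of -1.25 (SE 0.44) was -0.47 without the library of animal 7. ENSOARG00020018165, described above, had a log2 difference of -1.45 (SE 0.64) in the pars tuberalis and -1.57 (SE 0.65) in the hypothalamus, and these were -0.42 and -0.05 without animal 7.

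The higher members in active pars tuberalis were nearer to 0. ENSOARG00020011124 had 17.7 to 44.8 CPM in active rams (median 31.8) and 13.6 to 33.3 CPM in inactive rams (median 23.2), a log2 difference of 0.45 (SE 0.30). ENSOARG00020017405 had 35.0 to 96.1 CPM in active rams (median 56.3) and 16.7 to 62.1 CPM in inactive rams (median 49.0), a log2 difference of 0.39 (SE 0.27). That difference was 0.25 without the library of inactive animal 7, which was the lowest with 46.9 CPM in the next inactive ram, and 0.20 without active animal 3. In both the groups overlapped, and the adjusted p of each was 0.967 (edgeR quasi-likelihood, Benjamini-Hochberg adjusted).

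In the pineal gland 71 members (78.9%) were below 0, against 48.8% of all genes, and the median log2 difference was -0.35, against 0.00 over all genes. An unadjusted p below 0.05 was reached by 12 members (13.3%) and by 1.94% of all genes. All 12 were lower in active rams, against 1.32% of all genes, and 0 were higher, against 0.62%. DESeq2 gave 16 members. Without the pineal library of inactive animal 10 the median was 0.09 and 5 members had an unadjusted p below 0.05. The lower level in active pineal glands was thus seen with that library and not without it.

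ENSOARG00020002841 had 0.196 to 1.47 CPM in active pineal glands (median 0.793) and 0.347 to 20.2 CPM in inactive pineal glands (median 0.791). The value of 20.2 CPM was that of inactive animal 10, and the next was 1.503 CPM. The log2 difference was -2.25 (SE 0.66) with adjusted p 0.758 (edgeR quasi-likelihood, Benjamini-Hochberg adjusted), and -0.0060 without that library. ENSOARG00020011580 had 0.420 to 1.65 CPM in active pineal glands (median 0.737) and 0.753 to 12.6 CPM in inactive pineal glands (median 1.16). Its log2 difference of -1.69 (SE 0.50) was -0.32 without that library.

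In active pineal glands 19 members were above 0 (21.1%, against 51.2% of all genes). ENSOARG00020005424 had 6.08 to 10.0 CPM in active rams (median 7.63) and 3.82 to 9.63 CPM in inactive rams (median 7.09), a log2 difference of 0.31 (SE 0.21) that was 0.19 without inactive animal 12. ENSOARG00020006694 had 3.14 to 7.85 CPM in active rams (median 4.93) and 2.92 to 7.24 CPM in inactive rams (median 3.65), a log2 difference of 0.28 (SE 0.22). It was 0.48 without the pineal library of inactive animal 10, 0.12 without active animal 3 and 0.18 without inactive animal 7. Both pairs of groups overlapped, and neither passed the test.

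Whether state acted differently in the tissues that share the members was tested as the hypothalamus difference minus the pars tuberalis difference. By the same edgeR test 0 members were called, and 0 of the 16773 genes were (0%). DESeq2 called 0 members and 11 genes. An unadjusted p below 0.05 was reached by 2 members (2.22%) and by 4.11% of all genes, and by 3 members with DESeq2. Of the 2, 1 had the higher difference in the hypothalamus, against 2.81% of all genes, and 1 the lower, against 1.31%. The median of the difference was 0.13 for the members and 0.04 over all genes, and 54 members were above 0 (60.0%, against 55.2% of all genes). Without inactive animal 7 the median was -0.0298 and 0 members had an unadjusted p below 0.05, and that number was 6 without inactive animal 8, 4 without inactive animal 9, and 1 without active animal 4 or inactive animal 11. It was 4 without the pineal library and 1 without the hypothalamus library of inactive animal 10. The interval lay within 2-fold either way for 13 members (14.4%) and for 55.8% of all genes, with a median SE of 0.60 for the members and 0.33 for all genes.

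The 2 members at an unadjusted p below 0.05 were ENSOARG00020026210 and ENSOARG00020011124. Both tissues came from the same rams, and with the animal as a block 0 members reached that level. ENSOARG00020026210 differed by 2.35 (SE 0.92) on the log2 scale, and by 1.47 with the block. It had 18.6 to 327 CPM in active hypothalami (median 147) and 33.8 to 228 CPM in inactive hypothalami (median 104), and the difference was 0.65 without the pars tuberalis library of inactive animal 7. ENSOARG00020011124 differed by -0.91 (SE 0.42), and by -0.59 without the hypothalamus library of inactive animal 10. It had 14.4 to 28.5 CPM in active hypothalami (median 20.4) and 10.4 to 54.7 CPM in inactive hypothalami (median 24.8), where the highest value was that of inactive animal 10 and the next inactive ram had 29.3 CPM. Its log2 difference was -0.46 in hypothalamus, for which no value without inactive animal 10 was taken, and 0.45 in pars tuberalis. Neither passed the test within its tissue. Its r with hypothalamus-restricted genes over the 12 hypothalamus libraries was 0.971, and the part of those genes in the difference was not tested.

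The next in each direction were ENSOARG00020006694, at 0.55 (SE 0.30), and ENSOARG00020025212, at -0.93 (SE 0.46). ENSOARG00020006694 had 25.7 to 46.3 CPM in active hypothalami (median 34.3) and 13.7 to 37.1 CPM in inactive hypothalami (median 26.7). In the pars tuberalis it had 40.6 to 66.5 CPM in active rams (median 57.2) and 56.4 to 80.6 CPM in inactive rams (median 63.4). All 4 of these members had an adjusted p of 0.995 by the same test.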

How the data were processed

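Messenger RNA was sequenced from 3 tissues (hypothalamus, pars tuberalis, pineal gland) in 12 rams, giving 36 libraries. The authors deposited whole-number read counts for each gene, without normalisation. Per the submitters' processing notes the tools were FastQC, STAR 2.7.8a, HTSeq and edgeR, with no roles stated. Not given in the sources used here are the genome build, the annotation, the strand setting, and the treatment of multiply mapped reads and molecular identifiers, so near-identical, overlapping and antisense genes are uncertain, and counting intervals would cover counting error only.

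Levels are CPM by library total, computed with Python 3.11.15 and pandas 2.3.3. State was tested in R 4.3.3 with edgeR 4.0.16. Its filter (minimum count of 10, 6 groups) kept 16773 genes and removed 9705. TMM scaling and 1 robust quasi-likelihood fit of all 36 libraries followed, with a mean for each group (30 residual degrees of freedom), and p-values were Benjamini-Hochberg adjusted over all genes tested. Standard errors are the absolute log2 difference over the square root of F. DESeq2 1.42.0, other scalings and filters, the animal as a block, other limits for membership and leaving out animals or libraries were alternatives. The edgeR state test in the hypothalamus was run on simulated counts, with no differences between tissues beyond the planted ones. The other steps were not checked in this way.

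The members, lists, tests and alternatives were chosen with earlier results of these data known. For IDs without names, the rule for named genes took 2 members by level, 2 by ratio, and 2 higher and 2 lower by p in each state test. Lists of gene symbols could not be used. Over 90 pairs of libraries of a group, chi-square divided by its degrees of freedom was at least 35.7, so none was a copy. Animal numbers in the labels pair the tissues. Deviations from group means correlated across 16773 genes at a median over 12 animals of 0.0948 between hypothalamus and pars tuberalis, 0.198 between hypothalamus and pineal gland and 0.216 between pars tuberalis and pineal gland.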

Additional observations from a re-analysis of the deposited data

Results flagged for a closer look

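A library was picked out where its gap to the nearest of the 6 libraries of its group exceeded 0.625 of the group's range (Dixon's limit). For normally distributed values chance passes that limit in about 1 of 20 groups, and CPM need not be so distributed. Over all members it was passed in 108 of 540 sets of 6 libraries (20.0%), against 10.2% for the comparison genes. The share was highest for inactive pineal glands, at 53.3% of members and 5.83% of comparison genes. In the inactive pars tuberalis it was 26.7% of members and 28.3% of comparison genes.

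Of the 17 named members, 8 had inactive animal 10 far above the other inactive pineal glands. The values there were 166 CPM for ENSOARG00020009292, 4.10 CPM for ENSOARG00020019583, 17.6 CPM for ENSOARG00020001258 and 3.97 CPM for ENSOARG00020025212. They were 4.19 CPM for ENSOARG00020011124, 7.24 CPM for ENSOARG00020006694, 20.2 CPM for ENSOARG00020002841 and 12.6 CPM for ENSOARG00020011580. The share of counts of the members in that library was 0.146%, and its median member stood at 290% of the pineal median.

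In the pars tuberalis, inactive animal 7 was far above its group for ENSOARG00020026210 at 1506 CPM and ENSOARG00020021630 at 250 CPM, and far below it for ENSOARG00020001258 at 23.4 CPM and ENSOARG00020017405 at 16.7 CPM. The members took 1.21% of the counts of that library. For ENSOARG00020018165 animal 7 was far above its group in the hypothalamus at 224 CPM, in the pars tuberalis at 230 CPM and in the pineal gland at 12.9 CPM. The pars tuberalis library of inactive animal 10 had its median member at 93.9% of the tissue median, below the other inactive rams.

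Among active rams, the hypothalamus of animal 2 was far above its group for ENSOARG00020007736 at 2477 CPM, ENSOARG00020006195 at 93.8 CPM, ENSOARG00020001258 at 257 CPM and ENSOARG00020011580 at 146 CPM. Its pars tuberalis was far above for ENSOARG00020001148 at 110 CPM.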

How the results depend on the processing

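The number of members ran from 67 to 117 over 18 alternatives and from 83 to 93 with each animal left out. The number called for state was 0 under every alternative run in the pars tuberalis, in the pineal gland and for the difference between hypothalamus and pars tuberalis. In the hypothalamus it ran from 0 to 1 with each animal left out, and the 1 was ENSOARG00020025212 without animal 8. The median pineal log2 difference of the members ran from -0.49 to 0.0909 with each animal left out, and was 0.0909 without the pineal library of inactive animal 10. With the animal as a block, 0 members were called for the difference between hypothalamus and pars tuberalis and its median was 0.12, and the number at an unadjusted p below 0.05 was 0, against 2 without the block. The block changed no call. For ENSOARG00020026210 the difference was 1.47 with the block and 2.35 without it. Fitting only the libraries of the tissues compared gave 7 members at an unadjusted p below 0.05 in the hypothalamus and 6 for the difference. The cause of these changes was not tested. The spread between rams limits the state tests. Pineal counts over the 12 libraries differed widely between members. They were 87 in all for ENSOARG00020000761, 122 for ENSOARG00020021118 and 42391 for ENSOARG00020007736.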
